A study of Mus musculus with 6 samples.

Results

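A set of 10 transcription factors that sensory neurons are known to switch on after their axons are cut were followed in vagal ganglia of mice given an insulin receptor antagonist. They are Atf3, Jun, Sox11, Fosl2, Klf6, Klf4, Klf7, Cebpd, Cebpb and Myc, taken by symbol as a list of regeneration-associated factors, and all 10 of 10 were found among the 32719 genes of the count files. Total RNA of the jugular-nodose ganglia, the home of the vagal afferent neurons, was sequenced in 3 treated and 3 control libraries, as the titles name them. The protocol describes male C57BL/6J mice of wild-type genotype, whose age is not given, with subcutaneous osmotic pumps that delivered PBS with the peptide antagonist S961 at 10 nmol per week for 2 weeks, or PBS alone. Both groups therefore carried an implanted pump. Since S961 is entered as the treatment of all 6 libraries, the control status of 3 of them is known only through their titles and the protocol. The labels do not say whether a library is 1 animal, a pool of animals or a repeat, so the p-values reflect only how far these samples differ among themselves, which may be technical.

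When a peripheral axon is damaged, signals travel back to the cell body, among them the kinases DLK and JNK, and a set of transcription factors is induced there. Atf3 and Jun belong to the basic leucine zipper family and bind DNA as paired subunits, Sox11 is a SoxC factor of neuronal development, and the Krüppel-like factors (KLFs) are zinc finger proteins of which some promote and others restrain axon growth. C/EBP factors and Myc are also active in macrophages, fat cells and dividing cells, so their transcripts in a dissected ganglion need not come from neurons. In bulk RNA, a change in the number of cells of a type and a change in the RNA per cell cannot be told apart.

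The libraries held 12898607 to 33522486 gene counts. Treated replicate 3, the smallest, stood apart, with correlations of 0.920 to 0.944 with the other libraries across genes, which are not independent replicates. The tissue label reads spinal cord, and 11 spinal cord markers summed to 16.9, 16.6 and 16.7 CPM (counts relative to the TMM-scaled library total) in treated replicates 1, 2 and 3 and 12.7, 16.5 and 16.4 CPM in control replicates 1, 2 and 3. Most of this was Aqp4, a water channel of astrocytes, at 10.7 to 12.3 CPM in treated and 9.63 to 12.8 CPM in control libraries. Lmx1b had 7 to 78 counts and Gfap 10 to 52 counts per library, whereas the oligodendrocyte genes Mog, Mobp and Olig2 had 0 to 5 counts each. Summed CPM of 10 macrophage markers were 58.9, 105 and 441 in treated replicates 1, 2 and 3 and 67.2, 45.5 and 109.5 in control replicates 1, 2 and 3. The 10 fat cell markers summed to 23.0, 70.3 and 593 CPM in the treated and 49.6, 12.5 and 28.0 CPM in the control libraries, and the 10 neutrophil markers to 2.23, 15.2 and 55.8 CPM in the treated and 6.65, 1.69 and 14.4 CPM in the control libraries. The 11 nodose markers summed to 808, 926 and 520.5 CPM in the treated and 1125, 1149 and 1155 CPM in the control libraries, without overlap. The 8 jugular markers summed to 961, 609 and 1020.3 CPM in the treated and 622, 621 and 523 CPM in the control libraries, where treated replicate 2 lay within the control range. The 7 fibroblast markers summed to 476, 739 and 2145 CPM in the treated and 889.5, 658 and 1139 CPM in the control libraries, and the 13 pan-neuronal markers to 14511, 13644 and 10358 CPM in the treated and 14024, 14092 and 12802 CPM in the control libraries. Treated replicate 3 was thus the highest in the markers of macrophages, fat cells, neutrophils and fibroblasts and the lowest in those of nodose neurons and of neurons in general. Treated replicate 1 lay within the control range for macrophages, fat cells and neutrophils and below every control for fibroblasts. All treated libraries were above all controls for 1 of 10 macrophage, 1 of 10 fat cell, 0 of 10 neutrophil and 5 of 8 jugular markers and below them for 7 of 11 nodose markers, and 0 markers of these lists were at 0 in every library. Over all tested genes, 7.07% had all treated libraries above all controls and 7.63% had them below.

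Promoter sequence was at hand from RefSeq (GRCm38.p6) for 8 of the 10 genes, in windows of 250 bases before to 50 after the start site. The stretches below, from 150 to 11 bases before the start, 5′ to 3′ on the gene's strand, are shown because they hold the 2 kinds of ATF-related match found among these genes, and the capitals mark the match. None of their bases lie in GENCODE exons of the same gene, and exons of other genes were not checked. The RefSeq start of Atf3 is inside the longer GENCODE gene, so its stretch is intronic in the longest transcript.
Atf3 (chr1:191183344-191183483, minus strand): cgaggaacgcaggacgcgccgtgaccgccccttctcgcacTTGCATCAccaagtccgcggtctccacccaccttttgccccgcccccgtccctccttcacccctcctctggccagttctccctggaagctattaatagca
Jun (chr4:95052233-95052372, minus strand): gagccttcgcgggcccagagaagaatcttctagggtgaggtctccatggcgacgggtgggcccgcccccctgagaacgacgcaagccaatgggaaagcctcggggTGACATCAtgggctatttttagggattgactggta
Sox11 (chr12:27342729-27342868, minus strand): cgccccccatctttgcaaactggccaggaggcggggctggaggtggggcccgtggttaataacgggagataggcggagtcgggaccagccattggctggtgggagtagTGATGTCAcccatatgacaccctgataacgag
Klf6 (chr13:5861339-5861478, plus strand): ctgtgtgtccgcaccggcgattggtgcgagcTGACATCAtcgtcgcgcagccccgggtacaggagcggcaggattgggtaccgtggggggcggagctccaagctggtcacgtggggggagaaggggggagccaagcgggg

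Both strands of each window were searched. The AP-1-like motif TGACATCA, known as a site of Jun in its own promoter, began 45 bases before the start of Jun. It also began 119 bases before that of Klf6, and on the opposite strand 42 bases before that of Sox11. These are 3 of the 8 windows, against 3.62% of 32851 RefSeq windows of the same length. The motif was chosen as a known site of Jun, so the match in Jun was given in advance, and only those in Klf6 and Sox11 were not. The C/EBP-ATF motif TGATGCAA was matched in Atf3 alone of the 8, on the opposite strand and 110 bases before the start, against 0.895% of all windows. The E-box CACGTG, which Myc binds, was in the windows of Klf4 and Klf6 (7.15% of all windows), and the GT box CCACCC, which KLFs bind, in those of Atf3, Jun, Klf7 and Cebpb (31.5%). No window of the 8 held the AP-1 motif TGANTCA (7.81% of all), the cyclic AMP response element TGACGTCA (1.79%) or the C/EBP palindrome TTGCGCAA (0.183%), and no match of one motif overlapped a match of another. All 300 bases of the Fosl2 window and 152 of the Klf7 window lie in GENCODE exons of the same gene. Both genes begin upstream of the RefSeq start in GENCODE, so matches or their absence there need not describe a promoter. Klf6, which holds the same letters as Jun and Sox11, had a log2 fold change of 0.23, against 0.93 and 1.76 in those genes, and a match is a description of sequence alone.

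All 10 factors had a positive log2 fold change, with a median of 0.74, where 52.8% of all 16019 tested genes were positive and the median of all was 0.02. For 8 of the 10 it was above 0.5, against 10.5% of all genes. In 5 of the 10, Atf3, Sox11, Jun, Fosl2 and Myc, every treated library lay above every control, which was so for 7.07% of all tested genes, and in 0 of the 10 did every treated library lie below every control (7.63% of all genes, and 14.7% in either direction). The same 5 had an unadjusted edgeR quasi-likelihood p under 0.05, against 4% of all genes in that direction, and 0 of the 10 had one with lower treated levels (2.67% of all genes, and 6.67% in either direction). After Benjamini-Hochberg adjustment over all genes, 0 of the 10 and 0 of all genes (0%) passed at 0.05, where 1068 genes had an unadjusted p under 0.05. DESeq2 called 89 genes (0.556%), among them Atf3, Sox11 and Jun, limma-voom called 0, and limma-voom with sample quality weights called 8 (0.0499%), among them Atf3. Leaving out treated replicate 1, edgeR called 7 genes (0.0437%), among them Atf3 and Sox11, and leaving out treated replicate 3 it called 9 genes (0.0537%) and 0 of the 10. Without a low-count filter it called 26 genes (0.0941%), among them Jun. Since the list was drawn up with results of these samples known, its counts describe these libraries and give no independent support.

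**Figure D1:**
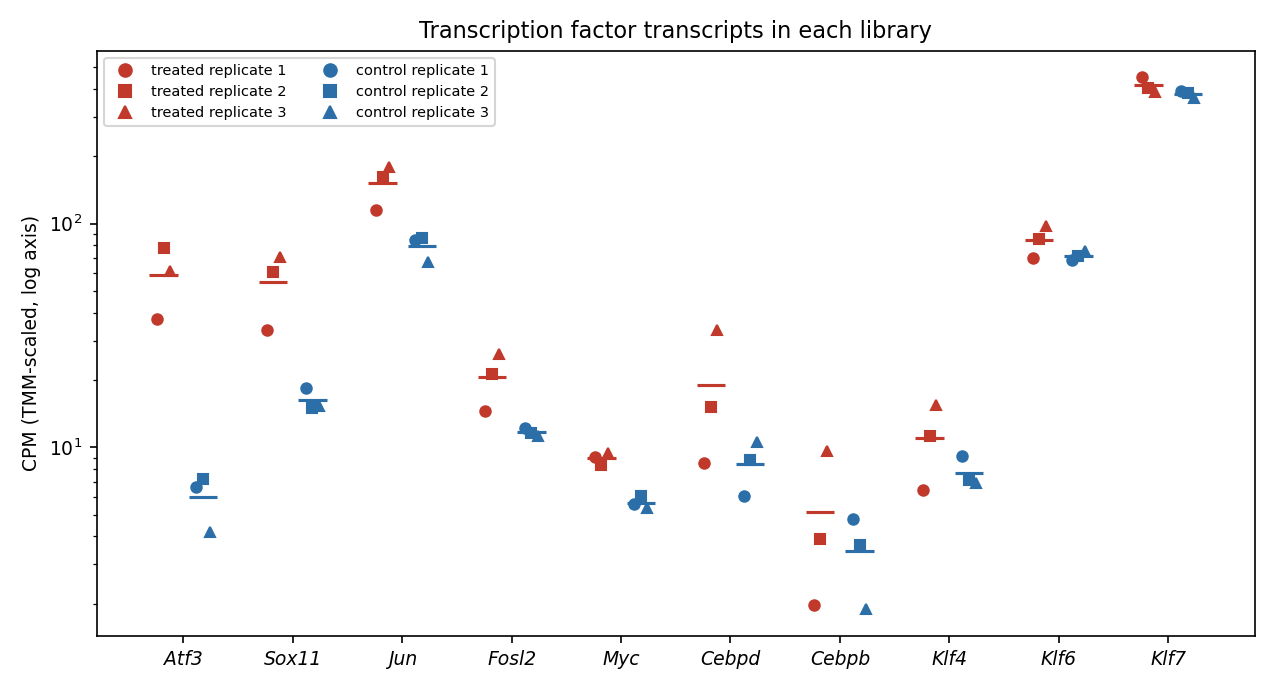
Each point is 1 library's level in CPM (log axis) for each transcription factor, treated in red and control in blue, with the replicate number as the symbol and the group mean as a line. Atf3, Sox11, Jun, Fosl2 and Myc have all 3 treated libraries above all 3 controls, and the other 5 factors overlap.

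Atf3 (ENSMUSG00000026628; chromosome 1, 191170296 to 191218039, minus strand, GRCm38), a stress-inducible factor that is hardly made by uninjured sensory neurons, had 37.4, 77.4 and 61.4 CPM in treated replicates 1, 2 and 3 and 6.65, 7.23 and 4.19 CPM in control replicates 1, 2 and 3. The lowest treated library lay far above the highest control. Its mean was 58.7 ± 20.1 CPM in treated and 6.02 ± 1.61 CPM in control ganglia (SD, n = 3 each), a log2 fold change of 3.27 ± 0.33 (SE), or 9.65-fold. By edgeR it ranked 2 of the 16019 genes by p (unadjusted p = 2.50e-05, adjusted p = 0.179). The two-sided exact permutation test gave p = 0.1, the smallest that 3 libraries against 3 allow. The adjusted p was 0.00742 without treated replicate 1 by edgeR and 1.65e-23 by DESeq2, with 0.954 as the highest over all alternatives, and the log2 fold change ran between 3.01 and 3.50 over them.

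Jun (ENSMUSG00000052684; chromosome 4, 95049034 to 95052222, minus strand), the AP-1 subunit that JNK phosphorylates, is a gene of 1 exon. Its levels were 115, 161 and 180 CPM in the treated and 84.0, 86.5 and 67.5 CPM in the control libraries, with treated replicate 1 the lowest of the treated but above each control. It averaged 152 ± 33.4 CPM in treated and 79.4 ± 10.3 CPM in control ganglia (SD, n = 3 each), a log2 fold change of 0.93 ± 0.18 (SE, edgeR adjusted p = 0.527). Without a low-count filter edgeR gave it an adjusted p of 0.0151, and DESeq2 one of 0.000749, the lowest over all alternatives, where the highest was 0.995. Jun was already abundant in controls, whereas Atf3 was not, and the ratio of Atf3 to Jun counts within a library, which no library scaling can change, was 0.326, 0.480 and 0.342 in the treated and 0.0791, 0.0836 and 0.0621 in the control libraries. This ratio did not overlap between groups (exact permutation p = 0.1, and 0.5 after adjustment over the 5 pairs of factors compared in this way, whose adjusted values were 0.5 to 0.6).

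Fosl2 (ENSMUSG00000029135; chromosome 5, 32135801 to 32157842, plus strand) encodes the Fos-related antigen Fra-2, a partner of Jun in AP-1. It had 14.6, 21.4 and 26.1 CPM in the treated and 12.2, 11.6 and 11.2 CPM in the control libraries. The controls lay close together and treated replicate 1 stood just above them. The means were 20.7 ± 5.80 CPM in treated and 11.7 ± 0.502 CPM in control ganglia (SD, n = 3 each), a log2 fold change of 0.82 ± 0.21 (SE, edgeR adjusted p = 0.621). Its profile over the 6 libraries was the nearest to that of Jun among the 10, with a root mean square difference of 0.13 between centred log2 levels, and the ratio of Fosl2 to Jun counts, 0.127 to 0.145 in the treated and 0.134 to 0.166 in the control libraries, overlapped (exact permutation p = 0.2).

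Sox11 (ENSMUSG00000063632; chromosome 12, 27334264 to 27342574, minus strand), which promotes axon growth in injured sensory neurons and is also a 1-exon gene, had 33.4, 60.6 and 70.7 CPM in the treated and 18.4, 14.9 and 15.3 CPM in the control libraries. Every treated library was above every control, and treated replicates 2 and 3 were each above 60 CPM. The means were 54.9 ± 19.3 CPM in treated and 16.2 ± 1.91 CPM in control ganglia (SD, n = 3 each), 3.38-fold apart with a log2 fold change of 1.76 ± 0.27 (SE, edgeR adjusted p = 0.352). Its adjusted p was 0.00742 without treated replicate 1 and 1.71e-07 by DESeq2, the lowest over all alternatives, where the highest was 0.995.

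Myc (ENSMUSG00000022346; chromosome 15, 61985391 to 61990374, plus strand), a factor of cell growth, showed the smallest spread among treated libraries. It had 9.08, 8.36 and 9.39 CPM in the treated and 5.56, 6.04 and 5.34 CPM in the control libraries, a log2 fold change of 0.66 ± 0.17 (SE, edgeR adjusted p = 0.621). Treated replicate 1 was here as high as the other treated libraries, unlike for Atf3, Jun, Sox11 and Fosl2, where it was the lowest of the 3. Over all alternatives the log2 fold change of Myc stayed between 0.61 and 0.70 except under scaling to pan-neuronal markers, where it was 0.78.

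In treated replicate 1, the summed markers of macrophages, fat cells and neutrophils lay within the control range and those of fibroblasts below it, and Atf3, Sox11, Jun, Fosl2 and Myc stood 2.66, 1.05, 0.54, 0.32 and 0.68 log2 units above the control mean there. Without treated replicate 3 their log2 fold changes were 3.23, 1.54, 0.80, 0.62 and 0.62. The 8 Schwann cell markers summed to 1408, 2140 and 2233 CPM in treated replicates 1, 2 and 3 and 1145, 1830 and 1218 CPM in control replicates 1, 2 and 3. For the 7 satellite glia markers these sums were 2789, 3277 and 3628 CPM and 2409, 3311 and 2631 CPM. The summed markers of nodose and jugular neurons differed alongside these 5 factors, as given above. The part of neurons, glia or other cells in the result was not tested.

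**Figure D2:**
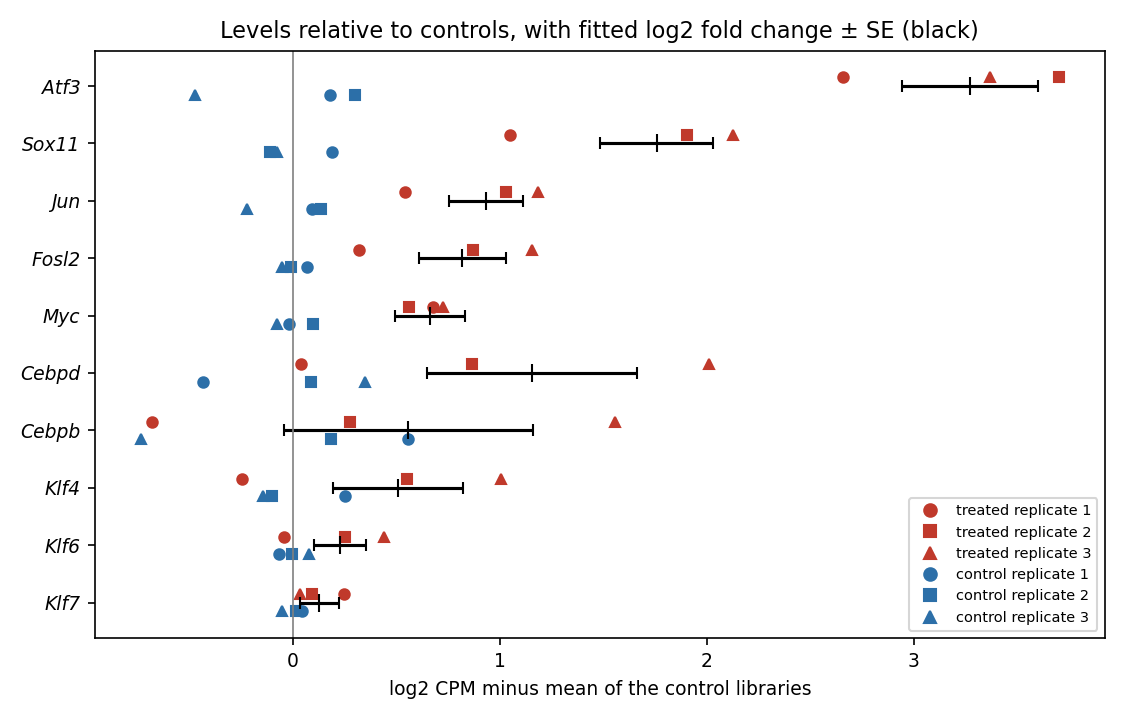
Each row is 1 transcription factor, with each library's log2 CPM minus the mean of the controls (treated red, control blue, symbol by replicate) and the edgeR log2 fold change ± SE in black. Treated libraries reach 2.66 to 3.70 for Atf3, while for Cebpb they run from -0.68 to 1.56 across the control values.

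The C/EBP factors are basic leucine zipper proteins of inflammation and fat cell formation, and both overlapped between groups. Cebpd (ENSMUSG00000071637; chromosome 16, 15887286 to 15891031, plus strand) had 8.48, 15.1 and 33.5 CPM in the treated and 6.08, 8.77 and 10.5 CPM in the control libraries. Treated replicate 3 was the highest by far, and treated replicate 1 lay below control replicates 2 and 3. The log2 fold change was 1.15 ± 0.51 (SE, edgeR adjusted p = 0.737) and 0.48 without treated replicate 3. Cebpb (ENSMUSG00000056501; chromosome 2, 167688915 to 167690418, plus strand) had 1.96, 3.90 and 9.62 CPM in the treated and 4.76, 3.65 and 1.89 CPM in the control libraries, with treated replicate 3 the highest and treated replicate 1 next to the lowest control. Its log2 fold change of 0.56 ± 0.60 (SE, edgeR adjusted p = 0.833) was -0.24 without treated replicate 3. The ratio of Cebpd to Cebpb counts was 4.32, 3.88 and 3.48 in the treated and 1.28, 2.40 and 5.57 in the control libraries, with all treated values inside the control range (exact permutation p = 0.4).

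Klf4 (ENSMUSG00000003032; chromosome 4, 55527143 to 55532466, minus strand), which restrains axon growth in central neurons and is also made by endothelial and myeloid cells, had 6.43, 11.3 and 15.4 CPM in the treated and 9.11, 7.12 and 6.89 CPM in the control libraries. Its lowest value of all 6 was in treated replicate 1 and its highest in treated replicate 3. The log2 fold change of 0.51 ± 0.31 (SE, edgeR adjusted p = 0.746) was 0.20 without treated replicate 3. Cebpd, Cebpb and Klf4 thus had the same order among treated libraries as the summed macrophage, fat cell, neutrophil and fibroblast markers, lowest in replicate 1 and highest in replicate 3. The Schwann cell and satellite glia sums given above had it as well. So did the 7 endothelial markers, at 143, 175 and 184 CPM in treated replicates 1, 2 and 3. Library totals had the reverse order, at 33522486, 27856590 and 12898607 gene counts. Jun, Sox11, Fosl2 and Klf6 had the order of Cebpd too, whereas Atf3, Myc and Klf7 did not. The part of any of these cells, or of library size, in these values was not tested. Cebpa, a C/EBP factor of fat and myeloid cells outside the 10, had 3.36, 4.15 and 42.6 CPM in the treated and 6.19, 2.69 and 4.19 CPM in the control libraries, so its high value too was in treated replicate 3.

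**Figure D3:**
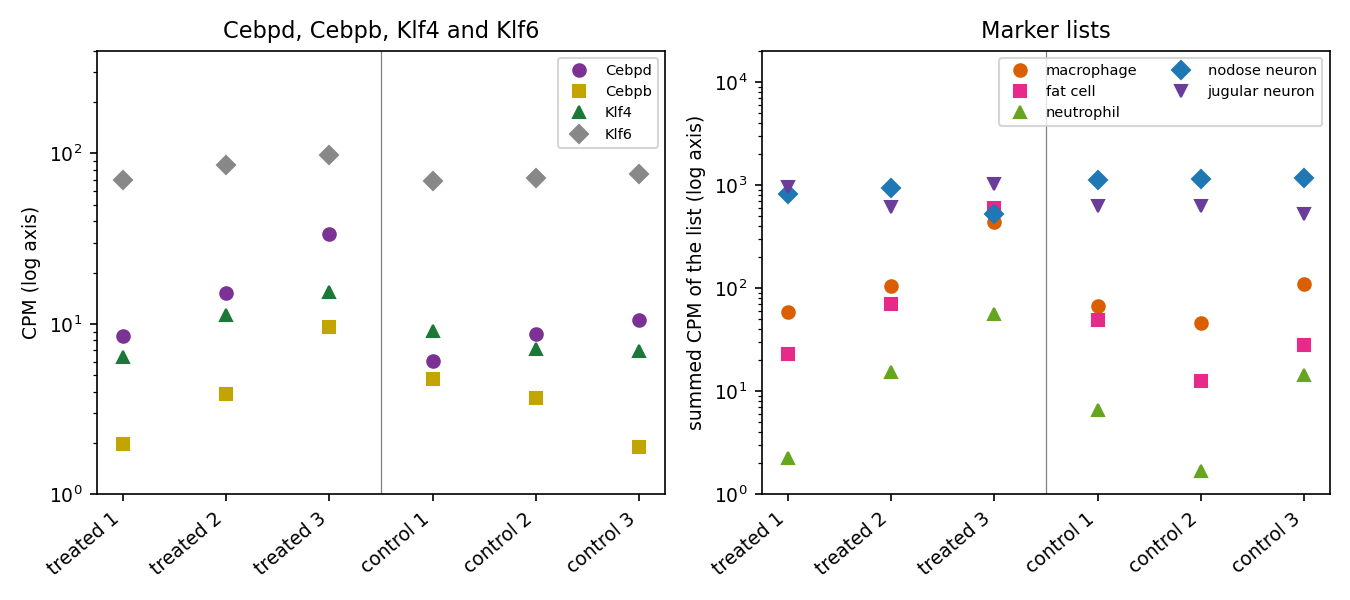
The left panel gives the CPM of Cebpd, Cebpb, Klf4 and Klf6 in each library and the right panel the summed CPM of 5 marker lists, both on log axes with treated libraries left of the line. Treated replicate 3 is the highest for Cebpd (33.5 CPM), Cebpb (9.62 CPM) and Klf4 (15.4 CPM) and for the macrophage (441 CPM), fat cell (593 CPM) and neutrophil (55.8 CPM) markers.

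The remaining KLFs were abundant and differed little. Klf6 (ENSMUSG00000000078; chromosome 13, 5861482 to 5870394, plus strand), which promotes axon growth in zebrafish and cultured neurons, had 69.8, 85.5 and 97.4 CPM in the treated and 68.5, 71.5 and 75.8 CPM in the control libraries, where treated replicate 1 lay among the controls. Its log2 fold change was 0.23 ± 0.13 (SE, edgeR adjusted p = 0.742) and 0.11 without treated replicate 3. Klf7 (ENSMUSG00000025959; chromosome 1, 64029447 to 64122282, minus strand), a growth-promoting KLF needed by developing sensory neurons, had 450.1, 404 and 389 CPM in the treated and 391, 382 and 365 CPM in the control libraries. Treated replicate 3 lay just below control replicate 1, and here replicate 1 was the highest of the treated. The log2 fold change of Klf7 was 0.13 ± 0.10 (SE, edgeR adjusted p = 0.774) and 0.05 without treated replicate 1. Ratios of Klf6 to Klf7 counts, 0.155 to 0.251 in the treated and 0.175 to 0.207 in the control libraries, overlapped (exact permutation p = 0.6), as did those of Klf4 to Klf6 (exact permutation p = 0.6).

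To compare levels between genes, CPM were divided by the exon length in kilobases (GENCODE M21). In treated ganglia Klf7 had 51.0 ± 3.93 CPM per kb and Jun 47.6 ± 10.5, with overlapping ranges, then came Atf3 at 27.3 ± 9.33 and Klf6 at 19.2 ± 3.16, which overlapped each other, and Sox11 at 6.61 ± 2.32 (SD, n = 3). In control ganglia Klf7 led with 46.7 ± 1.60 CPM per kb, followed without overlap by Jun at 24.9 ± 3.24 and Klf6 at 16.4 ± 0.831, while Atf3 stood at 2.80 ± 0.750 and Sox11 at 1.95 ± 0.230 (SD, n = 3). Atf3 was thus in the range of Klf6 in treated ganglia and in that of Klf4, Cebpb, Cebpd, Myc and Sox11 in controls. Fosl2 was the lowest per kb in both groups, at 2.13 ± 0.599 in treated and 1.21 ± 0.0519 in control ganglia (SD, n = 3), and in the treated group neighbours from Sox11 through Cebpd, Klf4 and Cebpb to Myc overlapped.

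Some exons are shared with genes on the opposite strand, and since the strand setting of the counting is not given, reads of such partners cannot be told apart. Cebpb shares 312 of its 1504 exonic bases with Tmem189, which had 817 to 2605 counts where Cebpb had 28 to 121. Cebpd shares 562 of 3746 bases with Spidr, Jun 232 of 3189 with Junos, and Klf7 3196 of 8131 with Gm26649. Junos and Gm26649 are not among the genes of the count files, so their levels are unknown.

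Families related to the 10 factors had medians nearer to 0. Among 23 tested other AP-1 and ATF genes, 0 passed after adjustment over all genes, 4 had an unadjusted p under 0.05 with higher treated levels and 0 with lower ones, and their median log2 fold change was 0.07. Of the 4, 3 were the small Maf gene Mafk at 0.69 ± 0.21, Creb5 at 0.46 ± 0.14 and Atf1 at 0.60 ± 0.23 (log2 fold change ± SE, edgeR). Fosl1, which encodes Fra-1 and was named after its value was seen, was the last of the 4, with 0.684, 0.557 and 1.43 CPM in the treated and 0.287, 0.0769 and 0 CPM in the control libraries. Junb and Jund, the closest relatives of Jun, stood at 0.42 ± 0.22 and -0.12 ± 0.12, and Atf4, the stress factor that can induce Atf3, had 147, 163 and 130.2 CPM in the treated and 141, 151 and 149.7 CPM in the control libraries. These values of Junb, Jund and Atf4 were likewise picked out after they were seen.

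Of the 3 tested other C/EBP genes, 11 KLF genes, 14 SOX genes and 11 MYC network genes, 0 passed after adjustment over all genes. An unadjusted p under 0.05 with higher treated levels was found for 0, 1, 1 and 1 of them and with lower levels for 0. The median log2 fold changes were 0.09, 0.22, 0.19 and 0.16. Klf9, a glucocorticoid-responsive KLF, was at 0.29 ± 0.11, and Klf10 and Klf13 were at 0.22 ± 0.12 each. The endothelial factor Sox7 stood at 1.42 ± 0.44 with 1.52, 2.54 and 3.58 CPM in the treated and 1.03, 0.846 and 0.946 CPM in the control libraries. Sox12, which with Sox11 belongs to the SoxC group, was at -0.36 ± 0.15, and the glial factor Sox10 at 0.39 ± 0.27. Mlxipl, the carbohydrate-responsive factor ChREBP of liver and fat, was at 2.36 ± 0.59 with 2.53, 3.94 and 10.7 CPM in the treated and 1.38, 0.731 and 1.22 CPM in the control libraries, highest in the library with the most fat cell transcripts. Its relatives Mxd1 and Mlxip were at 0.44 ± 0.20 and 0.20 ± 0.12, Cebpg was at 0.09 ± 0.10 and Ddit3, the stress factor CHOP, at -0.06 ± 0.11.

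Other transcription factors linked to regeneration were counted as well. Of 16 tested, 0 passed after adjustment, 5 had an unadjusted p under 0.05 with higher treated levels and 0 with lower ones, the median was 0.25, and 8 had all treated libraries above all controls. Stat3, the effector of gp130 cytokines, had 346, 341 and 311 CPM in the treated and 271, 293 and 263 CPM in the control libraries, a log2 fold change of 0.27 ± 0.09 (SE, edgeR). Smad1, a mediator of BMP signals, was at 0.24 ± 0.08, and Runx1, which is also a jugular marker here, at 0.75 ± 0.19. The fold changes of Stat3 and Smad1 were small but the groups did not overlap.

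Genes of the DLK-JNK pathway, which acts upstream of Jun and Atf3 in injured neurons, showed no common direction. The list also holds Dusp phosphatase genes and Mycbp2, which restrain the pathway, and kinase activity was not measured. Of 19 tested genes, 8 stood higher and 11 lower in treated ganglia, the median log2 fold change was -0.04, 0 passed after adjustment over all genes, and 1 had an unadjusted p under 0.05. That gene was the stress kinase Map3k5 at 0.48 ± 0.14, while the kinases Map2k4 and Mapk9 (JNK2) were at -0.22 ± 0.10 and -0.15 ± 0.09. Immediate early genes, which respond within minutes to activity or handling, had a median of 0.40 over 17 tested genes, with 0 calls and 0 at an unadjusted p under 0.05. Egr1 was at 0.50 ± 0.22, Nr4a3 at -0.50 ± 0.23 and Ier5 at 0.57 ± 0.27 (log2 fold change ± SE, edgeR).

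**Figure D4:**
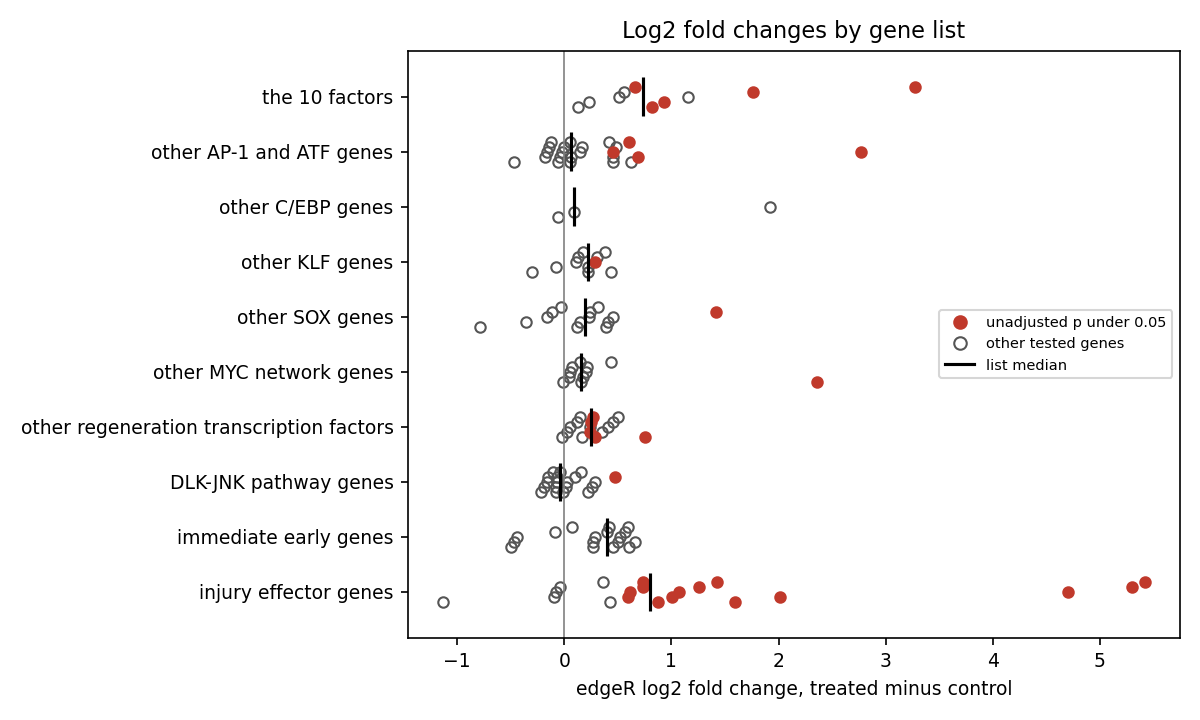
Each point is the edgeR log2 fold change, treated minus control, of 1 tested gene in each list, filled where the unadjusted p is under 0.05, with list medians as lines. The 10 factors have a median of 0.74 and the injury effector genes 0.80, while the other lists have medians from -0.04 to 0.40.

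Injury effector genes, the secreted, cytoskeletal and membrane products of the same response, mostly stood higher in treated ganglia. Of 20 tested, 14 had an unadjusted p under 0.05 with higher treated levels and 0 with lower ones, 14 had all treated libraries above all controls, 0 passed after adjustment over all genes, and the median was 0.80. This list held genes already known to differ in these samples, so its count is no independent evidence. The peptidase Ecel1 had 17.9, 59.4 and 37.5 CPM in the treated and 1.43, 0.692 and 0.811 CPM in the control libraries, with the order among treated libraries that Atf3 had. Gpr151, an orphan receptor, was at 4.70 ± 0.61 and the calcium channel subunit Cacna2d1 at 0.73 ± 0.10. Gap43, a growth cone protein that many regenerating neurons raise, was at -0.04 ± 0.13 (log2 fold change ± SE, edgeR) and was named after its value was seen.

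The genes most like 3 of the factors were found by the root mean square difference of centred log2 CPM over the 6 libraries among 14707 other genes at 1 CPM or more. The nearest to Jun were Fgfr3, an FGF receptor, at a difference of 0.09, the corepressor Nrip1 at 0.09 and the zinc finger gene Zfp703 at 0.13. Of these Fgfr3 was low, at 1.08 to 2.86 CPM over the 6 libraries. Nearest to Sox11 were the tubulin Tubb6 at 0.20, the syndecan Sdc1 at 0.22 and Sox7 at 0.22 (log2 units), where Sox7 had only 0.846 to 3.58 CPM. For Atf3 the 3 nearest were farther away, Wfdc3 at 0.49, Gm29374 at 0.56 and the cystine transporter Slc7a11 at 0.57, and each of these had under 4 CPM in every library. Within the 10, the nearest to Sox11 was Jun at 0.43, and Atf3 was the most distant, at 0.83 from Sox11.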

How the data were processed

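The deposited files hold raw counts of exonic reads per gene, 1 file per library, made by the authors. Libraries came from about 6 ng of total RNA (integrity numbers of 6.6 to 9.1 over the study) and were read at 100 bases, per the labels. The submitters' processing notes name bcl2fastq 2.20, STAR 2.7.7a, DESeq2, edgeR and build mm10. The counting program, its annotation and its strandedness were not given in the sources used here. Files were joined by Ensembl identifier, and 32663 of 32719 genes matched GENCODE M21 (GRCm38), the source of coordinates and exon lengths.

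Counts were fitted with edgeR 4.0.16 (R 4.3.3), with filterByExpr at a minimum count of 10, TMM scaling and the robust quasi-likelihood F test, adjusted over all 16019 genes tested at a threshold of 0.05. Positive log2 fold changes mean higher in treated, and the SE is the fold change divided by the square root of F. Log2 CPM used a prior count of 2. The procedure was run on simulated counts with known changes. These held no outlying library and no difference in cell types, so the run does not test the effect of either. Members, gene lists, ratio pairs and tests were chosen with earlier results of these data known. Named relatives are the 3 genes with the smallest p in each list at 1 CPM or more, unless said otherwise. Alternatives used DESeq2 1.42.0 and limma 3.58.1 too.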

Additional observations from a re-analysis of the deposited data

How the results depend on the processing

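With 10 other settings, 1 more chosen after seeing the data and 6 fits without 1 library, all 10 factors kept a positive log2 fold change except Cebpb, which was at -0.17 in limma-voom with sample quality weights and, when 1 library was left out, between -0.24 (treated replicate 3) and 0.94 (treated replicate 1). The count of genes called, 0 by edgeR, was 26 without a low-count filter, 89 with DESeq2, 8 with quality weights and 1 with the replicate block, and 0 to 9 when 1 library was left out (7 and 9 in the fits lacking treated replicate 1 and treated replicate 3). Of the 10 factors, 1 was called without the filter (Jun), 3 with DESeq2 (Atf3, Jun and Sox11), 1 with quality weights (Atf3), 0 with the replicate block and 0 to 2 when 1 library was left out (Atf3 and Sox11 without treated replicate 1). The count of factors whose groups did not overlap was 5 to 8 when 1 library was left out, the 8 being without treated replicate 1, and fewer libraries make separation easier. The share of all genes without overlap was not computed for these fits, so their counts cannot be set against a background. The replicate numbers were not taken to pair the samples, since deviations of same-numbered libraries from their group means correlated at 0.01, 0.56 and 0.49. Scaling to the 13 pan-neuronal markers, chosen after seeing the data, moved the median of all genes to 0.13 from 0.02 and that of the 10 factors to 0.90. There 6 of the factors did not overlap, and the share of all genes was again not computed. With a minimum of 5 CPM in 3 libraries Cebpb was not tested. Cebpb had the fewest counts of the 10 in 5 of the 6 libraries, 28 to 121.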
